A study of Mus musculus with 9 samples.

Results

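Intermediate filaments are the rope-like polymers of the cytoskeleton that give a cell its mechanical toughness, and each cell type builds them from its own choice of subunits. The 10 genes of this family described here mark neural and mesenchymal cells and were taken by symbol from the table of ribosome footprint counts, namely Nes, Vim, Gfap, Nefl, Nefm, Nefh, Ina, Prph, Des and Krt18. These were 10 of the 36410 genes listed, and each was matched by its own row, with no rule on its level. Nestin, encoded by Nes, is the filament protein of dividing neural precursors and assembles together with vimentin. Vimentin (Vim), desmin (Des), glial fibrillary acidic protein (Gfap) and peripherin (Prph) are type III subunits that mark mesenchymal cells, muscle, astrocytes and peripheral neurons. The light, medium and heavy neurofilament subunits (Nefl, Nefm, Nefh) and α-internexin (Ina) build the filaments of axons, and keratin 18 (Krt18) is the type I partner of keratin 8 (Krt8) in simple epithelia.

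The footprints came from immortalized mouse striatal cells, labelled as strain C57/BL6, with knock-in huntingtin (Htt) exon 1 alleles. The control line, STHdhQ7/Q7, had 7 glutamines on both alleles. The HD-het line, STHdhQ7/Q111, had 7 on one allele and 111 on the other, and the HD-homo line, STHdhQ111/Q111, had 111 on both. All 3 lines received cycloheximide, an inhibitor of translation elongation, for 10 min before lysis, and footprints of 26 to 32 nt were isolated from the 80S monosome fraction. Each line was sampled in 3 rounds of culture, which gave 9 libraries. Each genotype was a single line, so genotype and line cannot be told apart. Footprints reflect both the mRNA present and the ribosomes on it, and no mRNA measurement was used here. Fewer cells with a given filament and fewer footprints per cell also cannot be told apart in such bulk libraries.

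The libraries held between 22504543 and 41888701 counts. Levels are given in CPM, counts per 1000000 counts of the library after scaling by the trimmed mean of M-values (TMM). A gene with no count may still have been present at up to 3 counts, which is 0.0716 to 0.133 CPM of the unscaled totals depending on the library. This limit covers counting error only. The label "striatal" was checked against marker genes. The dopamine receptor genes Drd1 and Drd2, which define striatal projection neurons, had no count in any of the 9 libraries, whereas 6 of the 16 genes on that marker list reached the level needed for a test. Among those, Ppp1r1b (DARPP-32), a phosphatase inhibitor of these neurons, had 120 to 427 counts in a library, and the transcription factor genes Foxp1, Meis2 and Ebf1 had means over the lines of 33.4 to 56.9, 10.6 to 38.1 and 13.1 to 18.7 CPM. Of 14 neural precursor markers 11 reached it, and of 17 mesenchymal markers 15 did.

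Filament genes descend from a common ancestor, so footprints as short as these could match more than 1 member. The stretch of Vim coding sequence that lay nearest, in summed mismatches, to the other 9 members is printed here with the best matching stretch of 3 of them, because it shows how much or how little a footprint can tell the genes apart. Coordinates are of GRCm38 with the RefSeq annotation. Each stretch is 32 bases long, the length of the longest footprint, lies within 1 coding exon and is written 5′ to 3′ on the gene's own strand. Capitals mark bases identical to Vim.

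Vim, chr2:13580177-13580208, + strand: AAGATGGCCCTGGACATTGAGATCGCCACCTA
Des, chr1:75363630-75363661, + strand: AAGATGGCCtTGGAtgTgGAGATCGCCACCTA
Krt18, chr15:102031455-102031486, + strand: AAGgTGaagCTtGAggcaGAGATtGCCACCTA
Nes, chr3:87973082-87973113, + strand: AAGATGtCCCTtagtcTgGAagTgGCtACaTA

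In this stretch Des differed from Vim at 4 of 32 bases, Krt18 at 10 and Nes at 12. Away from it the genes diverged. Of the 1376 windows of 26 bases in the Vim coding sequence, 64 (4.65%) had a counterpart in Des with at most 2 mismatches, 38 in Prph, 16 in Nefh, 15 in Gfap, 10 in Nefm, 6 in Ina and 1 in Nefl. None had one in Nes or Krt18. Exact sharing of 26 bases between members was found only for Prph, with 11 windows in Des and 10 in Nefm. Krt18 shared 15.5% of its windows exactly with the pseudogene Gm5200, and Krt8 shared 45.6% with Krt8-ps, so the keratin values are uncertain to that extent. How footprints that match several genes were counted is not given in the sources used here. Annotated genes overlap Nefm (A230070E04Rik), Nefh (Gm35321 and Ap1b1), Ina (Nt5c2) and Des (Gm15179), and whether the counting used strand was likewise not given.

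The nestin gene showed the widest differences of the 9 members tested in both comparisons of HD-homo. HD-homo cells held far fewer nestin footprints than the control, while HD-het cells held more. The counts were 11105, 19641 and 8173 in the 3 control libraries, 27088, 42718 and 22336 in HD-het cells, and 275, 182 and 145 in HD-homo. In CPM these were 424, 467 and 307 in control cells, 1028, 1175 and 1056 in HD-het cells, and 7.65, 6.96 and 6.43 in HD-homo cells. The 3 lines formed 3 separate groups with no overlap. Nes rose 2.72-fold in HD-het against control (log2 fold change 1.44 ± 0.14 SE, edgeR quasi-likelihood test, adjusted p = 6.87e-06). It was 56.7-fold lower in HD-homo than in control (log2 fold change -5.83 ± 0.17, edgeR adjusted p = 8.17e-10) and 154-fold lower than in HD-het (-7.27 ± 0.18, edgeR adjusted p = 3.63e-10). Among the 12678 genes tested, 92 had a lower log2 fold change than Nes in HD-homo against control, and 83 did in HD-homo against HD-het.

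Vimentin, the main partner of nestin, behaved differently. It was among the most heavily translated genes of all 3 lines, with between 0.623% and 0.943% of all counts in a library and a rank between 2 and 9 among all genes. The CPM were 9169, 9317 and 9199 in control cells, 8366, 8588 and 7871 in HD-het cells, and 6101, 5977 and 6512 in HD-homo cells. Every HD-homo library lay below every HD-het library, and every HD-het library below every control library. Vim fell in HD-homo against control (log2 fold change -0.57 ± 0.073 SE, edgeR adjusted p = 7.05e-05) and against HD-het (-0.42 ± 0.073, edgeR adjusted p = 0.000379). The difference of HD-het from control, -0.16 ± 0.073, did not pass the threshold (edgeR adjusted p = 0.0842), although it did when libraries were scaled by their total counts alone (adjusted p = 0.0393).

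**Figure D1:**
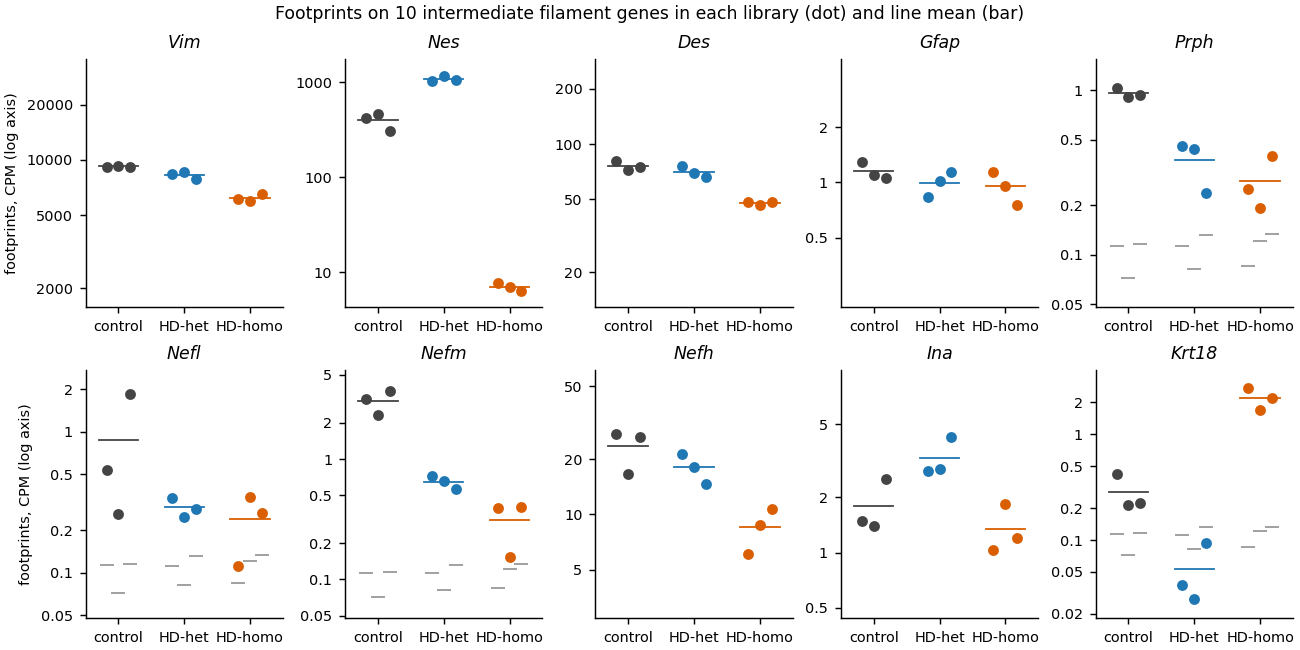
Footprint level of the 10 genes in CPM (log axis, its own range in each panel) in the 3 libraries of each line; dots are libraries, horizontal bars are line means, and short grey dashes mark the CPM of 3 counts in that library for genes with values below 1 CPM other than Gfap. Nes in HD-homo lies between 6.43 and 7.65 CPM, below every other library, Krt18 lies at or under 3 counts in all HD-het libraries, and Gfap overlaps among all lines.

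Ratios of counts within a library do not depend on how libraries are scaled. There were 3.34 to 5.01 nestin counts per 100 vimentin counts in control cells, 12.3 to 13.7 in HD-het cells and 0.0987 to 0.125 in HD-homo cells. The 3 lines differed in this ratio (exact permutation test, 1-way F over all assignments of the libraries to the lines, p = 0.00357, which is the smallest it can give; adjusted p = 0.00714 over the 2 ratios tested). Desmin, in contrast, kept close to vimentin. Its counts were 0.739% to 0.905% of those of Vim over all 9 libraries, and the means of the lines, 0.821% ± 0.0527 (SD, n = 3) in control, 0.854% ± 0.0464 in HD-het cells, and 0.769% ± 0.0263 in HD-homo, did not differ past the threshold (exact permutation test, p = 0.15, adjusted p = 0.15). As a description, the ratio to Vim had a coefficient of variation of 6.49% for Des over the 9 libraries, and 28 of 11070 genes with at least 10 counts in every library had a smaller one, the median being 30.5%.

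Desmin, the filament of muscle, was the third most abundant member in control and HD-het cells per coding length and the next after vimentin in HD-homo cells. Its CPM were 80.5, 72.0 and 74.9 in control cells, 75.7, 69.9 and 66.4 in HD-het cells, and 48.1, 46.5 and 48.1 in HD-homo cells. The control and HD-het libraries overlapped, and the HD-homo libraries lay below both. Des fell in HD-homo against control (log2 fold change -0.67 ± 0.081, edgeR adjusted p = 4.4e-05) and against HD-het (-0.57 ± 0.081, edgeR adjusted p = 7.58e-05), and its difference of HD-het from control was -0.10 ± 0.080 (edgeR adjusted p = 0.295). The myogenic factors Myog and Myf5 had no count in any library and Myod1 had at most 5, whereas the summed level of the 11 skeletal and cardiac muscle markers ran from 767 to 847 CPM in control, 924 to 1089 in HD-het cells, and 411 to 474 in HD-homo cells. Most of that sum was the actin genes Acta1 and Actc1, with means of 449 and 322 CPM in control, 651 and 318 in HD-het cells, and 191 and 239 in HD-homo. Matches of footprints among actin genes were not examined. The part of these cells' muscle-type genes, and of footprints shared with Vim and Prph, in the desmin values was not tested.

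Gfap, the filament of astrocytes, was scarce in all 3 lines and did not differ between them past the threshold. The counts were 34, 46 and 28 in control, 22, 37 and 24 in HD-het cells, and 41, 25 and 17 in HD-homo libraries, or 0.754 to 1.30 CPM over the 9 libraries. All 3 lines overlapped. The log2 fold changes were -0.21 ± 0.23 for HD-het against control (edgeR adjusted p = 0.450), -0.24 ± 0.23 for HD-homo against control (edgeR adjusted p = 0.410) and -0.038 ± 0.23 for HD-homo against HD-het (edgeR adjusted p = 0.961). For each of 10000 counts on Vim there were between 0.998 and 1.87 on Gfap, a ratio computed after the values had been seen. In Vim, 15 windows of 26 bases matched Gfap with at most 2 mismatches. The part of footprints shared with Vim in the Gfap counts was not tested. Of the defining astrocyte markers, Aqp4 had no count in any library, and Aldh1l1 and Slc1a2 stayed between 0 and 16 counts.

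Peripherin was lower in both lines with an expanded allele than in the control line, at levels near 1 CPM or below. Control libraries held 27, 38 and 25 Prph counts (1.03, 0.904 and 0.940 CPM), HD-het libraries 12, 16 and 5 (0.455, 0.440 and 0.236 CPM) and HD-homo libraries 9, 5 and 9 (0.250, 0.191 and 0.399 CPM). Every control library lay above the other 6, which overlapped among themselves. Prph fell in HD-het (log2 fold change -1.28 ± 0.30, edgeR adjusted p = 0.00303) and in HD-homo (-1.79 ± 0.32, edgeR adjusted p = 0.000789), and HD-homo against HD-het gave -0.50 ± 0.37 (edgeR adjusted p = 0.243). The part of footprints shared with Vim, where 38 windows matched Prph with at most 2 mismatches, was not tested here either.

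The neurofilament genes were uneven. Nefh, the heavy subunit that extends side arms from the filament, was the most abundant of them in every line, although axonal neurofilaments are built on the light subunit. Per kb of coding sequence, Nefh held 7.17 ± 1.84 CPM (SD, n = 3) in control cells, against 1.19 ± 0.272 for Nefm and 0.539 ± 0.518 for Nefl. In HD-homo cells these levels were 2.61 ± 0.707 for Nefh, 0.123 ± 0.0547 for Nefm and 0.147 ± 0.0726 for Nefl, and the last pair overlapped. Nefh overlaps the annotated genes Gm35321 and Ap1b1, and Nefm overlaps A230070E04Rik. The part of footprints from those genes in the Nefh and Nefm levels was not tested.

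Nefm, the medium subunit, fell in both lines. Its counts were 82, 97 and 98 in control, 19, 24 and 12 in HD-het cells, and 14, 4 and 9 in HD-homo libraries, or 3.13, 2.31 and 3.69 CPM, 0.721, 0.660 and 0.567 CPM, and 0.389, 0.153 and 0.399 CPM. The 3 lines did not overlap. Against control, Nefm fell in HD-het (log2 fold change -2.20 ± 0.28, edgeR adjusted p = 4.68e-05) and in HD-homo (-3.23 ± 0.31, edgeR adjusted p = 7.06e-06). The difference of HD-homo from HD-het, -1.03 ± 0.37 (edgeR adjusted p = 0.0275), rested on single libraries. It missed the threshold without HD-het replicate 1 (adjusted p = 0.0711), without HD-het replicate 2 (0.0654) and without HD-homo replicate 2 (0.0926).

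Nefh fell in HD-homo cells. Its CPM were 27.4, 16.6 and 26.4 in control cells, 21.2, 18.2 and 14.7 in HD-het cells, and 6.12, 8.75 and 10.7 in HD-homo cells, so that the HD-homo libraries lay below all others while control and HD-het overlapped. The log2 fold change of Nefh in HD-homo was -1.47 ± 0.24 against control (edgeR adjusted p = 0.000394) and -1.10 ± 0.24 against HD-het (edgeR adjusted p = 0.00160). HD-het against control gave -0.37 ± 0.23 (edgeR adjusted p = 0.173), which passed the threshold without control replicate 2 (-0.58, adjusted p = 0.0359). Counts of the medium subunit were also set against those of the heavy one. There were 11.4, 13.9 and 13.9 Nefm counts per 100 Nefh counts in control, 3.40, 3.63 and 3.87 in HD-het cells, and 6.36, 1.75 and 3.72 in HD-homo libraries, with no overlap between control and the other 2 lines. That ratio was given no test because Nefm lay under 10 counts in some libraries.

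α-Internexin, which joins the neurofilaments of young neurons, moved the other way in HD-het cells. The CPM of Ina were 1.49, 1.40 and 2.52 in control, 2.77, 2.86 and 4.26 in HD-het cells, and 1.03, 1.83 and 1.20 in HD-homo cells. The HD-het libraries lay above the other 6, and control and HD-homo overlapped. Ina rose in HD-het (log2 fold change 0.87 ± 0.28, edgeR adjusted p = 0.0200), a call that was lost without control replicate 1 (adjusted p = 0.0783), control replicate 2 (0.0867) or HD-het replicate 3 (0.0870). It fell in HD-homo against HD-het (-1.28 ± 0.30, edgeR adjusted p = 0.00250), and HD-homo against control gave -0.41 ± 0.31 (edgeR adjusted p = 0.305).

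The light subunit gene Nefl was the only member whose counts were too low for the filter. Its counts were 14, 11 and 49 in control, 9, 9 and 6 in HD-het cells, and 4, 9 and 6 in HD-homo libraries. One control library, replicate 3, held 49 of the 74 control counts, and the lines overlapped. Fitted with no filter, Nefl gave log2 fold changes of -1.56 ± 0.62 in HD-het (edgeR adjusted p = 0.0493) and -1.87 ± 0.64 in HD-homo (edgeR adjusted p = 0.0330) against control. Without control replicate 3, an alternative chosen after the data had been seen, these became -0.40 ± 0.52 (edgeR adjusted p = 0.572) and -0.72 ± 0.54 (edgeR adjusted p = 0.357).

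Among the defining neuron markers, Tubb3 had a mean between 84.1 and 102 CPM in the 3 lines, Map2 between 44.3 and 55.3 CPM, and Dcx between 1 and 11 counts in a library. The summed level of the 13 neuron markers ran from 298 to 344 CPM in control, 208 to 240 in HD-het cells, and 180 to 189 in HD-homo cells, in the same order as Nefm, Nefh and Prph. In HD-het against control 3 of the 7 tested fell, beside 29.1% of all genes. In HD-homo against control 5 of 7 fell, beside 22.3% of all genes. Stmn2, a tubulin-binding protein of growing axons, fell in HD-het (log2 fold change -3.35 ± 0.18, edgeR adjusted p = 1.18e-07) and in HD-homo (-3.83 ± 0.19, edgeR adjusted p = 2.88e-08), and Uchl1, an abundant neuronal deubiquitinase, fell in HD-homo (-1.23 ± 0.11, edgeR adjusted p = 4.4e-06). Stmn2 had means of 87.4 CPM in control, 8.58 in HD-het cells and 6.08 in HD-homo. It made most of the difference between control and HD-het in the summed level. Whether a change in neuron-like character has a part in the neurofilament values was not tested.

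**Figure D2:**
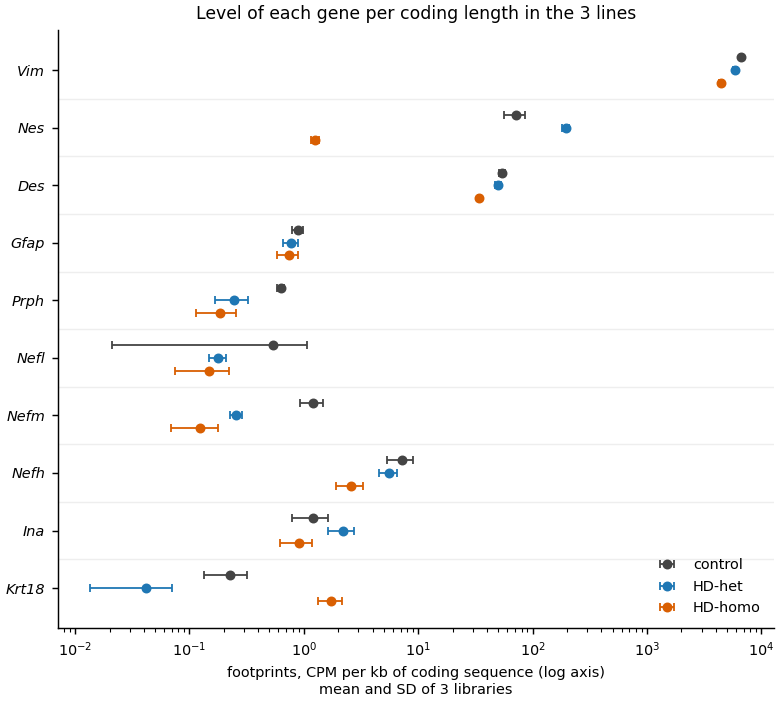
Level of each gene as CPM per kb of coding sequence (log axis), mean and SD of the 3 libraries of each line. Vim lies above all other members, Nes spans from 1.25 in HD-homo to 194 in HD-het, and Nefh lies above the other neurofilament subunits in every line.

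Per kb of coding sequence the order of levels was therefore Vim, Nes, Des, Nefh and then the rest in control and HD-het cells. Vim held 6587 ± 55.5 CPM per kb (SD, n = 3) in control cells, 5907 ± 262 in HD-het cells and 4423 ± 200 in HD-homo cells. This was 98.0% ± 0.188, 95.9% ± 0.121 and 99.1% ± 0.0239 of the summed level of the 10 members. Nes stood at 71.4 ± 14.8 CPM per kb in control cells, where its libraries overlapped those of Des at 53.7 ± 3.05, and at 194 ± 13.9 in HD-het cells, clear of Des at 50.1 ± 3.33. In HD-homo cells Nes took the fifth place, at 1.25 ± 0.109, and overlapped its neighbours Krt18 above and Ina below. At the lower end, Nefm, Nefl and Prph could not be ordered in HD-homo cells, where neighbouring genes overlapped.

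Keratin 18 was the only member that rose in HD-homo cells. Its counts were 11, 9 and 6 in control, 1, 1 and 2 in HD-het cells, and 98, 44 and 50 in HD-homo libraries, which was 0.420, 0.214 and 0.226 CPM in control cells and 2.73, 1.68 and 2.22 CPM in HD-homo cells. No library of a line reached into the range of another. Krt18 rose in HD-homo against control (log2 fold change 2.98 ± 0.32, edgeR adjusted p = 1.72e-05). In HD-het it fell against control (edgeR adjusted p = 0.00528), and the pooled counts, 26 in control and 4 in HD-het, gave a ratio of 5.75 with an exact 95% counting interval of 1.99 to 22.7. Krt18 passed the filter only through its counts in HD-homo, the line where it was highest, and this holds for every comparison. With the 6 libraries of HD-het against control alone, it was not among the genes tested. HD-homo lay above HD-het (edgeR adjusted p = 1.15e-06), with pooled counts of 192 against 4 and a ratio of 47.5 (interval 18.3 to 176). These intervals cover counting error only, and footprints shared with the pseudogene Gm5200 were not separated.

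Its partner Krt8 did not follow. The CPM of Krt8 were 10.4, 10.8 and 12.2 in control, 2.43, 6.02 and 7.38 in HD-het cells, and 2.22, 6.77 and 4.39 in HD-homo cells. Control libraries lay above all others, and HD-het and HD-homo overlapped. Krt8 fell in HD-homo (log2 fold change -1.34 ± 0.39, edgeR adjusted p = 0.0147) and in HD-het (-1.09 ± 0.38, edgeR adjusted p = 0.0278). The HD-het call was lost under DESeq2 (adjusted p = 0.0616), without control replicate 2 (0.0516) or 3 (0.0646) and without HD-het replicate 1 (0.0836) or 2 (0.0518). There were 1.85 to 4.03 Krt18 counts per 100 Krt8 counts in control, 0.457 to 1.56 in HD-het cells, and 122, 24.9 and 50.5 in HD-homo libraries. This ratio was given no test, since Krt18 lay under 10 counts in most libraries of control and HD-het.

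**Figure D3:**
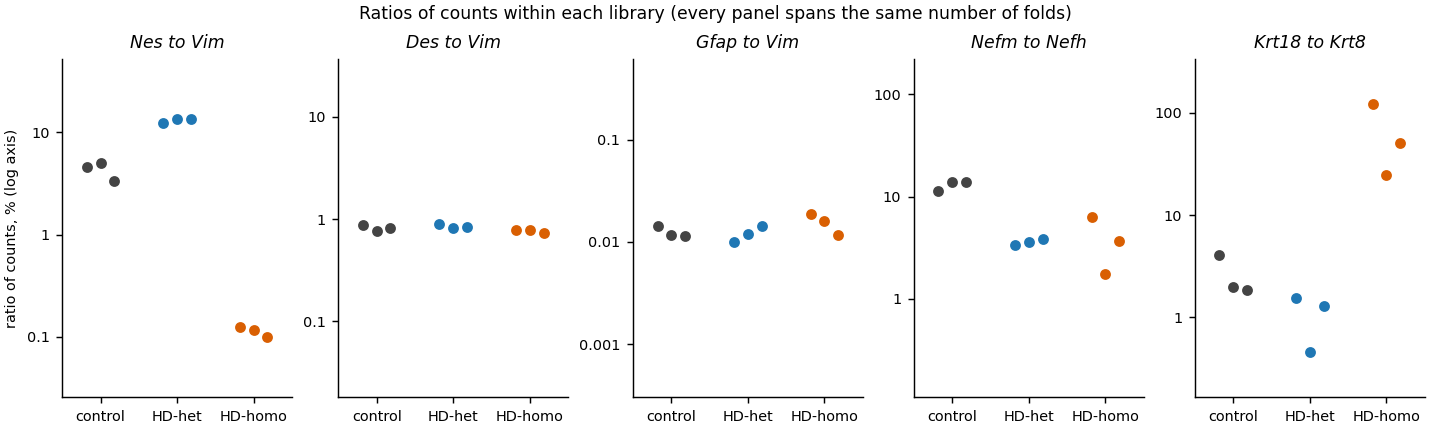
Ratio of the counts of 2 genes within each library, in percent (log axis; every panel spans the same number of folds), with 1 dot per library. The ratio of Des to Vim stays between 0.739% and 0.905% in all 9 libraries, whereas that of Nes to Vim runs from 0.0987% in HD-homo to 13.7% in HD-het cells, and that of Krt18 to Krt8 is highest in HD-homo.

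In HD-het against control, 5 of the 9 members tested passed the threshold, 2 higher (Nes and Ina) and 3 lower (Nefm, Prph and Krt18). Over all genes 60.1% passed it, 31% higher and 29.1% lower, so the share among the members was near that of the table. With the 6 libraries of this comparison alone, Krt18 was not tested. There 4 of 8 members passed, 2 higher and 2 lower, beside 8142 of 12333 genes. In HD-homo against control 7 of 9 passed, Krt18 higher and Nes, Vim, Des, Prph, Nefm and Nefh lower, beside 45.7% of all genes, 23.3% higher and 22.3% lower. In HD-homo against HD-het 7 of 9 passed, Krt18 higher and Nes, Vim, Des, Nefm, Nefh and Ina lower, beside 67.5% of all genes, 34.6% higher and 32.8% lower. The median log2 fold change of the 9 members was -0.21, -0.67 and -0.57 in the 3 comparisons, and that of all genes lay between 0.017 and 0.019. The comparisons share libraries, and so do not stand as independent of each other. Krt18 was among the 9 members tested only through its HD-homo counts, so its calls are not independent of the filter.

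**Figure D4:**
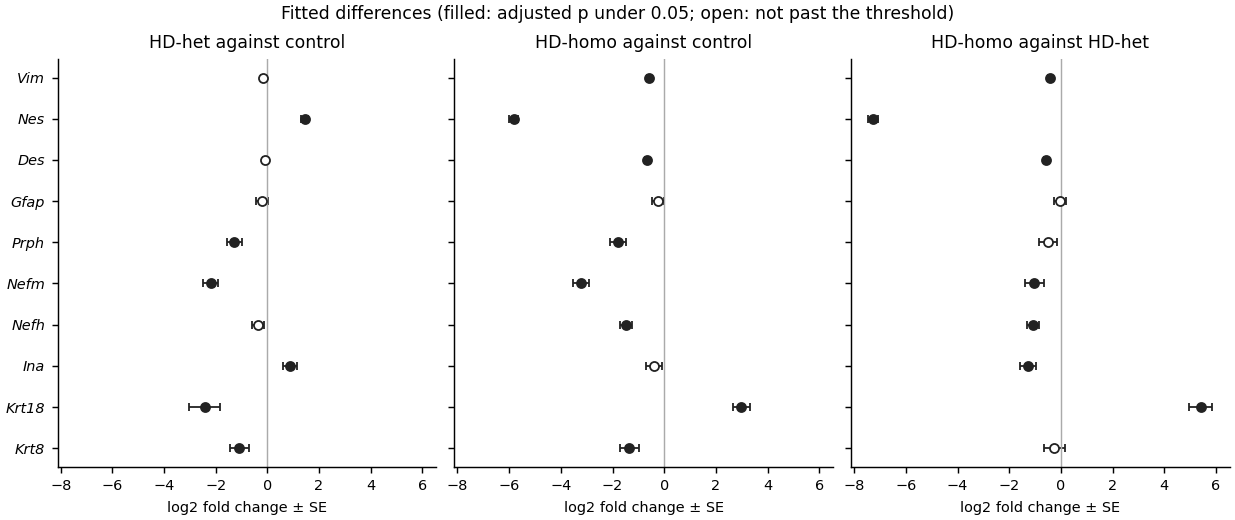
Fitted log2 fold change with its standard error (SE) for the 9 members tested and Krt8 in each comparison; filled dots passed an adjusted p of 0.05 and open dots did not. Nes lies at 1.44 in HD-het against control and at -5.83 in HD-homo against control, and Krt18 at 2.98 in HD-homo against control. The Krt18 values that involve HD-het rest on 4 counts in that line, and Krt18 passed the filter only through its HD-homo counts.

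The other cytoplasmic filament genes also moved in both directions. Of 13 listed genes 10 were tested, with 2 higher and 6 lower in HD-het against control, 2 higher and 5 lower in HD-homo against control, and 3 of each in HD-homo against HD-het. Their median log2 fold changes were -0.80, -0.86 and -0.068. Over all genes 60.1%, 45.7% and 67.5% passed the threshold in the same order of comparisons. Syncoilin (Sync), a muscle filament protein that binds desmin, rose in HD-het (1.29 ± 0.13, edgeR adjusted p = 7.98e-06) and was lower in HD-homo than in HD-het (-4.56 ± 0.17, edgeR adjusted p = 2.74e-09). Keratin 80 (Krt80) fell in HD-het (-1.78 ± 0.17, edgeR adjusted p = 6.69e-06) and rose in HD-homo (0.50 ± 0.15, edgeR adjusted p = 0.0200). Keratin 19 (Krt19), another type I keratin that pairs with keratin 8, fell in HD-homo (-1.48 ± 0.17, edgeR adjusted p = 2.75e-05).

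Synemin (Synm), a large filament protein that assembles with vimentin or desmin, and keratins 7 and 20 (Krt7, Krt20) fell outside the rule by which genes were named and were chosen after their values had been seen. Synm had 38, 66 and 34 counts in control, 59, 76 and 66 in HD-het cells, and 8, 14 and 6 in HD-homo libraries, the same order of lines as Nes and Sync, and its log2 fold changes were 0.77 (edgeR adjusted p = 0.0197) in HD-het cells, and -2.10 (edgeR adjusted p = 0.000294) in HD-homo. Krt7, a simple-epithelial type II keratin, had 8, 23 and 10 counts in control, 7, 6 and 2 in HD-het cells, and 98, 40 and 40 in HD-homo libraries, the same order as Krt18. It fell in HD-het (-1.23, edgeR adjusted p = 0.0398) and rose in HD-homo (2.25, edgeR adjusted p = 0.000165). Krt20, a keratin of the intestinal lining, had a mean of 4.65 ± 0.852 CPM in control cells, 0.289 ± 0.114 in HD-het cells, and 0.189 ± 0.0774 in HD-homo (SD, n = 3 each), with edgeR adjusted p = 1.16e-06 and 4.32e-07 against control.

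The epithelial markers gave no uniform pattern beside the keratins. Cdh1, the epithelial cadherin, had a mean of 4.75 CPM in control, 8.03 in HD-het cells, and 0.582 in HD-homo cells. Cldn3 had at most 1 count in a library and Epcam at most 14. The summed level of the 9 epithelial markers was 3.95 to 6.14 CPM in control, 7.18 to 9.31 in HD-het cells, and 1.37 to 2.95 in HD-homo, a sum that consisted mostly of Cdh1. Esrp2, an epithelial splicing factor outside the naming rule and chosen after its values had been seen, went the other way. Its mean was 0.0317 CPM in control, 0.0183 in HD-het cells, and 1.10 in HD-homo cells, where it rose against control (4.63 ± 0.66, edgeR adjusted p = 0.000160). Epcam, too low for a test, was also highest in HD-homo, at a mean of 0.361 CPM against 0.00793 in control. Grhl2, likewise outside the rule and too low for a test, was highest in control. Its mean was 0.250 CPM there, against 0.0220 in HD-homo. Cldn7 had at most 3 counts in a library, too few to order the lines.

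Plakins and other linker proteins tie filaments to actin, microtubules and junctions. Of 9 such linkers tested, not all of them plakins, 4 rose and 2 fell in HD-het, 3 rose and 6 fell in HD-homo against control, and 3 rose and 5 fell in HD-homo against HD-het, with median log2 fold changes of 0.071, -0.73 and -1.68. The shares of all genes that passed in these comparisons were 60.1%, 45.7% and 67.5%. Dystonin (Dst), a linker of filaments to microtubules and actin, rose in HD-het (1.48 ± 0.10, edgeR adjusted p = 7.54e-07) and was lower in HD-homo than in HD-het (-2.80 ± 0.11, edgeR adjusted p = 3.76e-09). Supervillin (Svil), an actin-binding membrane linker, did the same, at 2.10 ± 0.12 (edgeR adjusted p = 1.87e-07) and -2.83 ± 0.13 (edgeR adjusted p = 1.06e-08). Among the plakins Dsp rose in HD-homo against control while Plec, Dst, Macf1, Ppl and Eppk1 fell, and the other genes that rose there, Fam83h and Dtnbp1, are not plakins. The genes that rose included Fam83h, which organizes keratin filaments (2.63 ± 0.12, edgeR adjusted p = 1.78e-08), and desmoplakin (Dsp), which anchors filaments at desmosomes (1.99 ± 0.24, edgeR adjusted p = 4.54e-05). Periplakin (Ppl), also a desmosomal plakin, fell in HD-het (-2.99 ± 0.35, edgeR adjusted p = 2.99e-05) and in HD-homo (-2.09 ± 0.33, edgeR adjusted p = 0.000315).

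The lamins, the filament proteins of the nucleus, and the proteins that tether them gave 6 higher and 4 lower of 11 in HD-het, 1 higher and 7 lower in HD-homo against control, and 3 higher and 8 lower in HD-homo against HD-het (median log2 fold changes 0.24, -0.29 and -0.48). Beside these, 60.1%, 45.7% and 67.5% of all genes passed in the same comparisons. Nesprin 3 (Syne3), which binds plectin and so links the nucleus to cytoplasmic filaments, rose in HD-het (1.12 ± 0.10, edgeR adjusted p = 4.55e-06) and fell in HD-homo (-1.75 ± 0.11, edgeR adjusted p = 2.13e-07). The lamin B receptor gene Lbr fell in HD-homo (-0.75 ± 0.086, edgeR adjusted p = 3.07e-05) and rose in HD-het (0.29, edgeR adjusted p = 0.0126), and Lmnb2, a B-type lamin, fell in HD-het (-0.83 ± 0.10, edgeR adjusted p = 4.39e-05).

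Among 8 chaperones and turnover factors of filaments, 2 rose and 3 fell in HD-het, 2 rose and 4 fell in HD-homo against control, and 1 rose and 2 fell in HD-homo against HD-het. Of all genes, 60.1%, 45.7% and 67.5% passed in these comparisons. The small heat shock proteins that bind filaments carried the larger changes. αB-crystallin (Cryab), a chaperone of desmin and Gfap filaments, fell in HD-het (-1.67 ± 0.19, edgeR adjusted p = 1.99e-05) and in HD-homo (-2.24 ± 0.19, edgeR adjusted p = 2.71e-06). Hspb1 fell in HD-homo (-1.90 ± 0.096, edgeR adjusted p = 3.92e-08) and rose in HD-het (0.27, edgeR adjusted p = 0.0230).

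Kinases and phosphatases that act on filament proteins numbered 17, with 5 higher and 4 lower in HD-het, 2 higher and 7 lower in HD-homo against control, and 5 higher and 9 lower in HD-homo against HD-het. Their median log2 fold changes were -0.0019, -0.092 and -0.20. The shares passing over all genes were 60.1%, 45.7% and 67.5%. Rock2, a kinase that phosphorylates vimentin and Gfap during cell division, fell in HD-homo (-0.82 ± 0.11, edgeR adjusted p = 9.46e-05) and rose in HD-het (0.74 ± 0.11, edgeR adjusted p = 0.000135). Rock1 did the same, at -0.73 ± 0.11 (edgeR adjusted p = 0.000274) and 0.33 ± 0.11 (edgeR adjusted p = 0.0236). Cdk5, a kinase of neurofilament tails and nestin, rose in HD-het (0.75 ± 0.11, edgeR adjusted p = 0.000108), and Cdk1, the mitotic kinase, fell there (-0.89 ± 0.069, edgeR adjusted p = 1.58e-06).

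**Figure D5:**
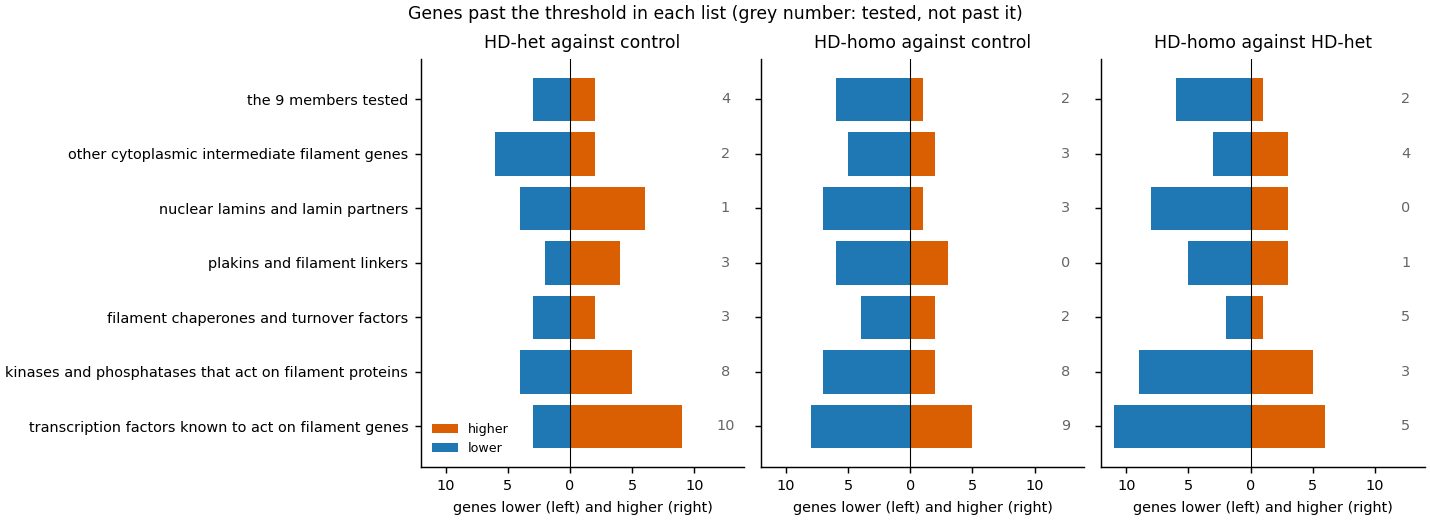
Number of genes past an adjusted p of 0.05 in each list, higher to the right and lower to the left, in each comparison; grey numbers are genes tested that did not pass. Lower genes outnumber higher ones in HD-homo against control in all 7 rows shown, the members included. Over all genes in that comparison 45.7% passed, 23.3% higher and 22.3% lower.

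Transcription factors known to act on filament genes gave 9 higher and 3 lower of 22 tested in HD-het, 5 higher and 8 lower in HD-homo against control, and 6 higher and 11 lower in HD-homo against HD-het (medians 0.14, -0.054 and -0.50). In the same comparisons 60.1%, 45.7% and 67.5% of all genes passed. Sox2, a factor of neural stem cells that binds the nestin enhancer, had 49.5, 48.5 and 55.4 CPM in control, 38.6, 29.5 and 33.7 CPM in HD-het cells, and 2.75, 2.22 and 1.82 CPM in HD-homo cells. It fell in HD-het (-0.59 ± 0.13, edgeR adjusted p = 0.00194), where Nes rose, and in HD-homo (-4.47 ± 0.16, edgeR adjusted p = 3.02e-09), where Nes fell. Pou3f2 and Pou3f1 on the same list, outside the naming rule and added after their values had been seen, were highest in HD-het, as Nes was. Their means were 0.0490 and 0.0413 CPM in control, 1.62 and 0.688 in HD-het cells, and 0 and 0.0255 in HD-homo. Zeb1, a repressor of epithelial genes, rose in HD-het (0.93 ± 0.090, edgeR adjusted p = 7.47e-06), and Sox9, a factor of glia and cartilage, rose in HD-homo (1.76 ± 0.18, edgeR adjusted p = 1.09e-05).

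Other neural precursor markers moved with nestin only in part. Pax6, a homeobox factor of forebrain precursors, had a mean of 17.3 ± 1.41 CPM in control, 24.8 ± 1.48 in HD-het cells, and 0.0759 ± 0.0704 in HD-homo cells (SD, n = 3), while Msi1, an RNA-binding protein of precursors, had 5.00, 4.81 and 3.19 CPM. Hes5 and Gsx2 were at 0 in all 9 libraries. Of the 11 tested, 4 rose and 5 fell in HD-het and again 4 rose and 5 fell in HD-homo against control. Over all genes 60.1% and 45.7% passed in these comparisons. Fabp7, a fatty acid binding protein of radial glia, rose in HD-het (4.29 ± 0.31, edgeR adjusted p = 1.12e-06), and the glial glutamate transporter gene Slc1a3 rose in HD-homo (2.81 ± 0.27, edgeR adjusted p = 7.4e-06) and fell in HD-het (-0.84, edgeR adjusted p = 0.0486). The summed level of the 14 markers was 205 to 223 CPM in control, 260 to 294 in HD-het cells, and 100 to 120 in HD-homo, the same order as Nes. The rise of this sum in HD-het rested on Notch1, a receptor gene with means of 48.9 CPM in control, 136 in HD-het cells and 23.4 in HD-homo. Sox2 and Msi2 were lower in HD-het than in control, with means of 55.8 CPM in control and 24.4 in HD-het for Msi2. The part of precursor identity in the nestin values was not tested.

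Smooth muscle and pericyte markers followed the same order of lines as Nes. Their summed level was 4459 to 5226 CPM in control, 10963 to 13042 in HD-het cells, and 386 to 628 in HD-homo cells, with Kcnj8 at 0 in all libraries. Of 7 tested, 6 rose and 1 fell in HD-het, 6 fell in HD-homo against control, and 6 fell in HD-homo against HD-het. The shares over all genes were 31% higher and 29.1% lower in HD-het, and 22.3% and 32.8% lower in the comparisons of HD-homo. Tagln, an actin-binding protein of smooth muscle, rose in HD-het (2.59 ± 0.26, edgeR adjusted p = 8.79e-06) and fell in HD-homo (-3.49 ± 0.27, edgeR adjusted p = 1.23e-06), and so did Acta2, smooth muscle actin, in HD-homo (-3.94 ± 0.21, edgeR adjusted p = 5.33e-08). Mesenchymal markers summed to 6578 to 11241 CPM in control, 29606 to 41520 in HD-het cells, and 9831 to 12942 in HD-homo cells, an order that differs from that of Vim. Fibronectin (Fn1) rose in HD-het (2.37 ± 0.29, edgeR adjusted p = 3.83e-05), and the collagen gene Col1a2 rose in HD-homo (5.41 ± 0.25, edgeR adjusted p = 2.07e-08), where Cdh2, the neural cadherin, fell (-2.96 ± 0.22, edgeR adjusted p = 7.91e-07) although it rose in HD-het (0.80, edgeR adjusted p = 0.00498).

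Markers of the remaining cell types were mixed. Oligodendrocyte markers summed to at most 13.1 CPM and microglial markers to at most 27.0 CPM, with Mog, Olig2 and Cx3cr1 at 0 in every library, and Mbp and Aif1 at no more than 12 counts. Tmem119, a membrane protein of microglia that bone-forming cells also make, had 102 to 656 counts and rose in HD-het (1.95 ± 0.17, edgeR adjusted p = 3.21e-06). Endothelial markers summed to 78.1 to 114 CPM in control, 177 to 253 in HD-het cells, and 5.77 to 10.5 in HD-homo cells, although Cldn5 was at 0 throughout and Pecam1 had at most 5 counts. That sum consisted mostly of Flt1, a receptor for vascular growth factors, with means of 100 CPM in control, 204 in HD-het cells and 6.71 in HD-homo. Flt1 fell in HD-homo (-3.88 ± 0.26, edgeR adjusted p = 3.6e-07) and rose in HD-het (1.02 ± 0.22, edgeR adjusted p = 0.00202). Astrocyte markers other than Gfap summed to 321 to 376 CPM in control, 261 to 367 in HD-het cells, and 495 to 595 in HD-homo cells, with the gap junction gene Gja1 at up to 13662 counts. In HD-homo glutamine synthetase (Glul) rose (2.26 ± 0.19, edgeR adjusted p = 2.95e-06) while Gfap did not pass the test.

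For the 4 members that reached a mean of 10 CPM in some line, the genes with the most similar pattern over the 9 libraries were found by Pearson's r of log2 CPM among 8362 genes of at least that level. The libraries form 3 lines, so such correlations are a description with n = 9 that mostly reflects the order of the lines. Closest to Nes were Cadm1, a cell adhesion molecule (r = 0.999), Fhl1, a LIM protein of muscle (r = 0.999), and Mcam, an adhesion molecule of pericytes and endothelium (r = 0.998). Cadm1 had a mean of 112 CPM in control, 283 in HD-het cells, and 1.48 in HD-homo cells, and 329 genes reached an r of 0.95 with Nes. Closest to Vim were Plcg2, Tbx20 and Crabp1 (r = 0.987, 0.986 and 0.984), which share its order of lines at quite different sizes, as Crabp1, a retinoic acid binding protein, averaged 496 CPM in control and 1.06 CPM in HD-homo cells. Des was nearest to Fam110c, L3mbtl3 and Asap2 (r = 0.986, 0.986 and 0.985), and Nefh to Oard1, Zxdc and Myl6 (r = 0.965, 0.964 and 0.958).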

How the data were processed

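Ribosome footprints (Ribo-seq) were counted in 9 libraries of immortalized striatal cells, 3 for each of 3 lines. The authors deposited raw counts of footprints per gene symbol, not normalized and with 1 column for each library. Per the submitters' processing notes, cutadapt, Bowtie 1.0.1 and build mm10 were used; the counting program, its annotation and its use of strand are not given in the sources used here. Column names gave the library of all 9 columns. Of 36410 rows, 19597 held 0 in every library, and 26 rows whose symbol had turned into a date held 0.252% of counts and were left in the fit.

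The counts were tested with edgeR 4.0.16 (R 4.3.3, limma 3.58.1), the quasi-likelihood F test with TMM factors, the filterByExpr filter by line and line as the only term, fitted to all 9 libraries and 12678 genes. P-values were adjusted by Benjamini-Hochberg over these genes, with 0.05 as the threshold. Standard errors (SE) were derived from the fold change and its F statistic. CPM used the TMM-scaled totals. The p-values measure the spread among 3 culture rounds of 1 line. Within-library ratios used an exact permutation test with a pseudocount of 0.5 (scipy 1.17.1, Python 3.11.15), for ratios whose genes had at least 10 counts in every library. A correlation of log2 CPM used a pseudocount of 0.1. Coding lengths and sequences came from RefSeq on GRCm38.p6, and exact matches to other genes from GENCODE M21 transcripts. The edgeR script was tested on simulated data.

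Named were the 10 members and Krt8. From each gene list and in each comparison, up to 3 genes were eligible, namely those past the threshold with the largest absolute log2 fold change, given that the higher line averaged at least 10 CPM and the lines did not overlap, and from each cell type list also the first 3 genes. For members of at least 10 CPM the 3 genes of most similar pattern were added. Members and lists were chosen with earlier results of these data known. Alternatives were other scalings (RLE size factors, total counts), DESeq2 1.42.0, other filters, the 6 libraries of a comparison alone, the replicate number as a block and leaving out each library. A few items are not reported here.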

Additional observations from a re-analysis of the deposited data

How the results depend on the processing

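Over 27 member results and 422 alternative values, 411 kept their direction and their side of the threshold, 6 lost the call, 2 gained it and 3 changed sign. The calls lost or gained are those given for Ina, Nefm, Nefh and Vim. Settings in which a member was not tested are not among these values. One such setting was Krt18 in HD-het against control with the 6 libraries of that comparison alone. All 3 sign changes were those of the log2 fold change of Gfap in HD-homo against HD-het, not called in any setting, which was 0.039 with total counts and ran from -0.20 to 0.093 when single libraries were left out. Krt8, which is not a member, was likewise not called there and ran from -0.71 to 0.098. With at least 10 counts in every library, 6 members could be tested, and the members called were 2 in HD-het against control and 4 in HD-homo against control, because Nefm, Prph and Krt18 were no longer among those tested. The replicate number as a block called 5, 7 and 7 members, as without it, and 7463, 5506 and 8406 genes against 7620, 5790 and 8555. Deviations of same-numbered libraries correlated between -0.42 and 0.20, so the numbers were not taken to pair the libraries. Total counts moved the higher and lower calls over all genes to 4836 and 3745 in HD-homo against HD-het, from 4391 and 4164. The ratio of Nes to Vim passed its test, and that of Des to Vim did not, with a pseudocount of 1 and without any single library. Depth limits Nefl, Prph, Krt18 and Nefm, which had under 10 counts in some libraries.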
